A study of Mus musculus with 45 samples.

Results

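The 8 genes described here, Umod, Slc12a1, Kcnj1, Bsnd, Cldn10, Cldn16, Cldn19 and Ptger3, serve salt transport, the tight junction and hormone sensing in the thick ascending limb of Henle's loop. They were taken by name, by a rule that sets no threshold on their values, but with earlier results of these data known. All 8 were found among the 55401 genes of both count tables and among the 15828 genes common to the count tables and the TPM tables (expression scaled for gene length and depth) of males and females. The measurements were TRAP RNASeq libraries (translating ribosome affinity purification: mRNA pulled down with a tagged ribosomal protein, here called the translatome) from kidneys of 45 mice at 7 weeks of age (P49). All mice carried R26Rpl10a, which encodes the EGFP-tagged ribosomal protein, together with Pax8rtTA and TetOCre, each in hemizygous state, and were given doxycycline from P28 to P42. Noncystic mice (8 males, 7 females) were Pkd1 fl/+ and are marked wild type in the sample labels, although they too held Cre and 1 floxed Pkd1 allele. Pkd1KO mice (7 males, 8 females) were Pkd1 fl/fl, and Pkd1KO+ciliaKO mice (9 males, 6 females) were Pkd1 fl/fl and Kif3a fl/fl, Kif3a being needed to build cilia. Pax8rtTA drives Cre in the epithelium of the whole nephron and collecting duct, so the thick ascending limb was measured as a part of all tubule segments and was not isolated.

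The thick ascending limb reabsorbs salt without water. NKCC2, encoded by Slc12a1, brings sodium, potassium and chloride in from the lumen, ROMK (Kcnj1) returns potassium to it, and barttin (Bsnd) is needed for chloride to leave on the basolateral side. The lumen-positive voltage that results drives cations between the cells through claudin pores, and a prostaglandin E2 receptor, EP3 (Ptger3), opposes hormone-stimulated transport.

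Promoter windows of the 250 bases before the RefSeq start (GRCm38.p6) were available for 7 of the 8 genes, in 9 windows. Those of Cldn10 are shown because its counts sum transcripts from 2 starts that lie 67079 bases apart, the upstream at chr14:118787621-118787870 (+) and the downstream at chr14:118854700-118854949 (+). Those of Umod, at chr7:119479263-119479512 (-), and Slc12a1, at chr2:125152350-125152599 (+), are shown as the most abundant pair, whose levels are compared throughout. Capitals mark GTTAAT, letters found in sites of the transcription factor HNF1, on either strand.
Umod: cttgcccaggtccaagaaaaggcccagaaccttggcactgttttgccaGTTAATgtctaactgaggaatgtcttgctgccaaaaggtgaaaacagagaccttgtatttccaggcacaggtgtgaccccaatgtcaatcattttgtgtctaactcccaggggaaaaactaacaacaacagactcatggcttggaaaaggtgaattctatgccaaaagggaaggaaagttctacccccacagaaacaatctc
Slc12a1: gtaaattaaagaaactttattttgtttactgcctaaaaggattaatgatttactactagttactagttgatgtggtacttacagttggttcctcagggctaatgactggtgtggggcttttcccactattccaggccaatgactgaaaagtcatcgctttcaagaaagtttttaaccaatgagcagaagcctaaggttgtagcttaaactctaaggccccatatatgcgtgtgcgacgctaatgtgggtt
Cldn10 upstream start: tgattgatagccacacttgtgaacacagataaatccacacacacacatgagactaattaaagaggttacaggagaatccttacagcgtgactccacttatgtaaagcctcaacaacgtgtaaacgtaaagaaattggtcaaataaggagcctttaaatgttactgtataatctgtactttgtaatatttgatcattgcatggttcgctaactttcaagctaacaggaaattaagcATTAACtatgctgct
Cldn10 downstream start: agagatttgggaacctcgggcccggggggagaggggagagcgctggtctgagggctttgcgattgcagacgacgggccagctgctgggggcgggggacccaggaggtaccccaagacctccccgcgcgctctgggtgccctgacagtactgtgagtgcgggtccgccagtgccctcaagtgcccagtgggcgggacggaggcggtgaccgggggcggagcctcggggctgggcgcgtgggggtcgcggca
The letters GTTAAT or their reverse complement were in 2 of the 9 windows, 202 bases before the start of Umod and 15 bases before the upstream start of Cldn10, and in 6.44% of all 32817 windows of this length. The letters AAGGTCA (as in sites of the ERR receptors) and TATAAA were in none of the 9, against 4.08% and 12.4% of all windows. The 2 Cldn10 windows differed in base content, with 36.0% G and C in the upstream and 72.4% in the downstream one.

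Libraries held 80874556 to 132958186 counted fragments (median 103070359), so 3 counts, the least taken as detected, correspond to 0.0226 to 0.0371 CPM (counts scaled to a common library size), and the lowest value of any of the 8 genes was far above this. Levels below are CPM after TMM scaling over all 45 mice, and TPM is used wherever genes are compared with each other. For the targeted genes, Kif3a was 4.83 to 7.54 CPM in the 9 Pkd1KO+ciliaKO males against 13.9 to 29.6 CPM in the other males. In 2 female libraries Kif3a went against the label, at 6.72 CPM in noncystic female 5 and 20.5 CPM in Pkd1KO+ciliaKO female 6. Pkd1 counts overlapped between all groups and cannot check the labels, since exon counts of a gene with part of its exons deleted need not fall to 0. Among males, scores on the first principal component over 15828 genes were highest in noncystic 3, Pkd1KO 4 and Pkd1KO+ciliaKO 6 and 8. These 4 libraries, called here the males that stood apart, reached 63.9, and the other 20 males reached 20.2. The lowest score of the 4 was much nearer to 20.2 than to 63.9, so the set has no wide gap from the rest. The paper reports no significant outliers by standard or robust principal component analysis. These 6 libraries stayed in, and each call of the 8 genes that changed without the 4 males or the 2 females is given both ways.

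Per length, Umod was the most abundant of the 8 in every mouse, at a median of 1345 TPM in Pkd1KO males to 2952 TPM in Pkd1KO+ciliaKO females, and made up 57.6% to 60.2% of the summed TPM of the 8. It encodes uromodulin, the most abundant protein of normal urine, and ranked between 13 and 57 among all genes by group mean TPM. Slc12a1 followed (group medians 339 to 945 TPM), then Kcnj1 (280.5 to 612 TPM) and Cldn10 (159.9 to 200.6 TPM), in this order in 45 of 45 mice. Cldn10 was a median of 3.15 times Bsnd, and over all 45 mice their TPM ranges did not overlap. Bsnd and Ptger3 had no order common to all groups, Bsnd being the higher in 27 of 45 mice. Bsnd was the higher in 8 of 8 noncystic males and in 0 of 6 Pkd1KO+ciliaKO females, and the other groups were mixed. Ptger3 was above Cldn19 in 43 of 45 mice, and Cldn19 above Cldn16 in 43 of 45 mice, with Cldn16 lowest at group medians of 11.6 to 27.3 TPM. Within a group the TPM ranges of Slc12a1 and Kcnj1 overlapped in 4 of the 6 groups, and those of Umod and Slc12a1 in no group.

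**Figure D1:**
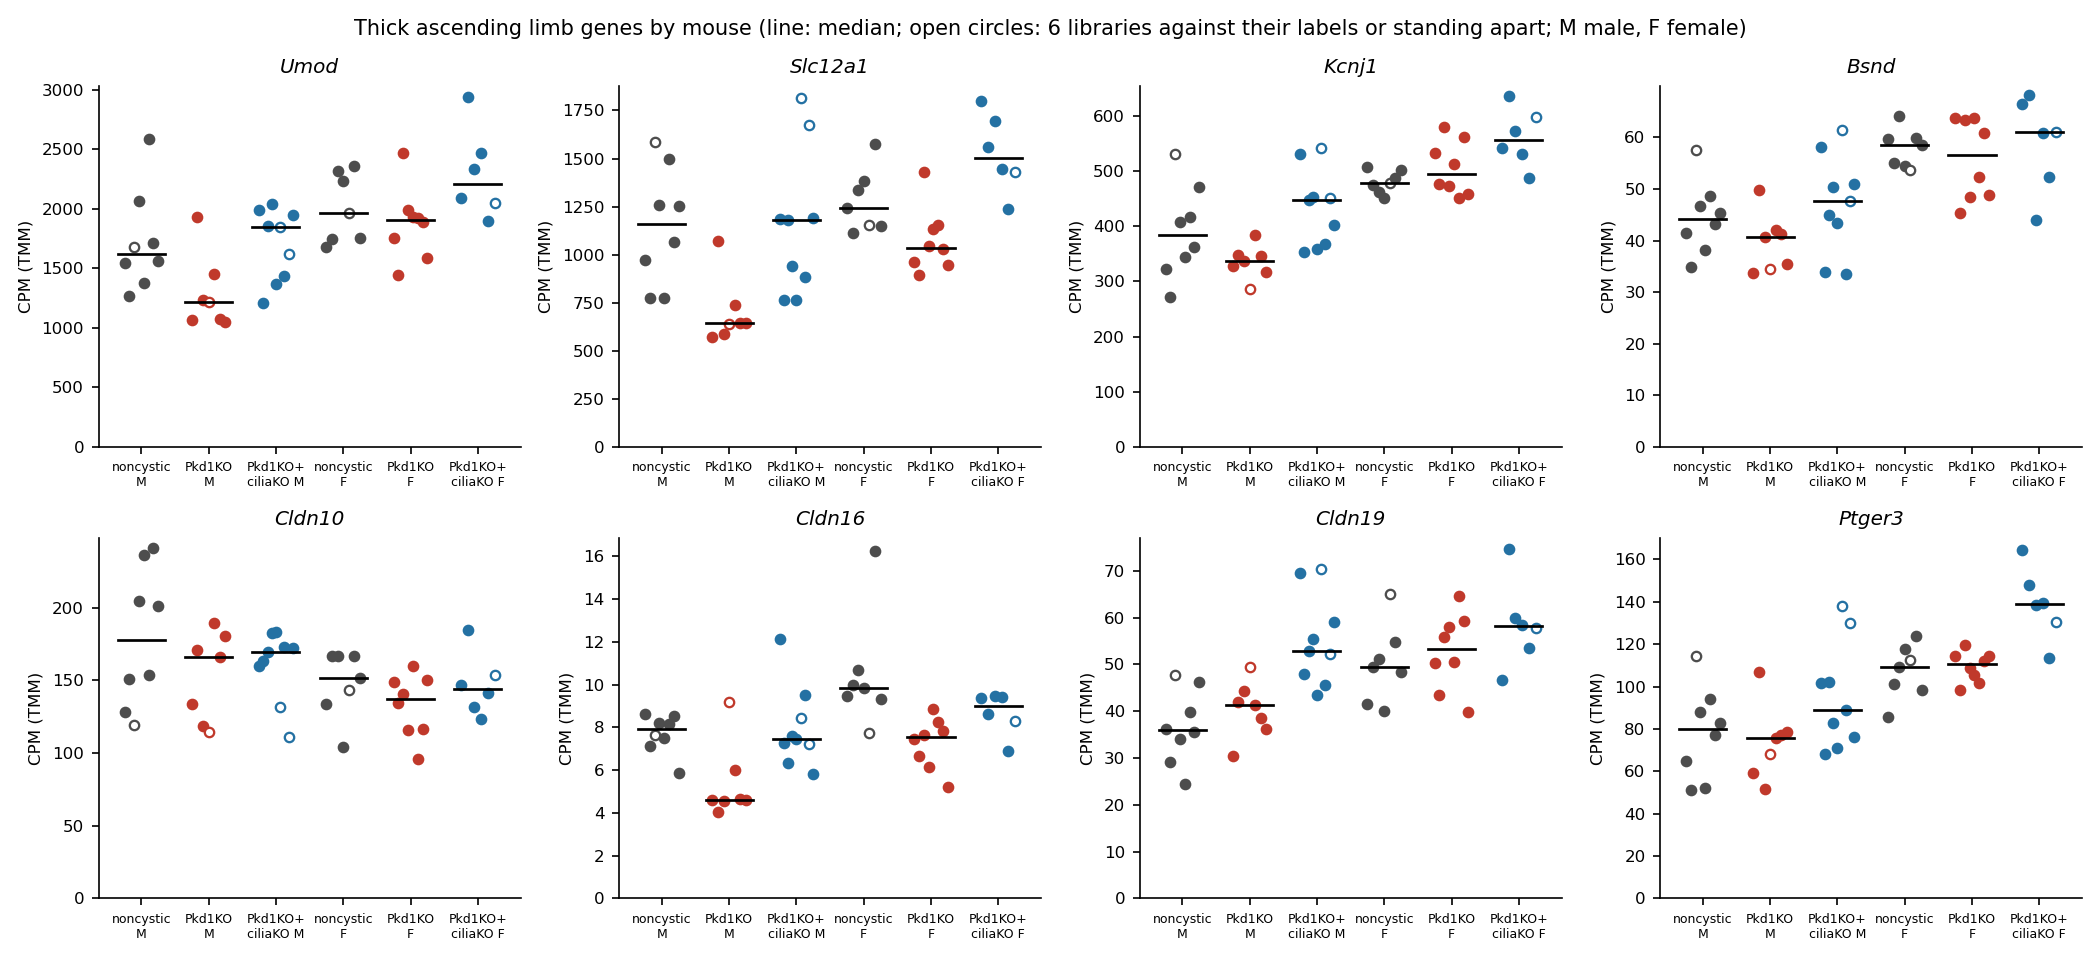
CPM of the 8 genes (vertical axes, each starting at 0) in every mouse of the 6 groups (horizontal axis), with a line at the group median. Open circles are the 2 female libraries whose Kif3a went against the label and the 4 males that stood apart. Slc12a1 was low in 6 of 7 Pkd1KO males, Cldn10 showed no such step, and most genes were higher in females.

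In males, Pkd1KO mice had lower Slc12a1 than both other genotypes, the direction pair called a cilia-dependent cyst activation (CDCA) pattern when Pkd1KO differs the same way from noncystic and from Pkd1KO+ciliaKO mice. Neither of these 2 Slc12a1 calls passed without the 4 males that stood apart. In females Slc12a1 and Ptger3 were lower in Pkd1KO than in Pkd1KO+ciliaKO mice, and Cldn16 was lower in Pkd1KO than in noncystic mice. Cldn19 in males and Ptger3 in females were higher in Pkd1KO+ciliaKO than in both other genotypes. Every change was below 2-fold. The 3 genotypes were compared in pairs within a sex with edgeR's quasi-likelihood test, Benjamini-Hochberg adjusted over all genes tested (adjusted p of 0.05 or less counted as changed), and since each genotype enters 2 of the 3 pairs the comparisons share mice.

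Against noncystic males, 1 of the 8 genes was lower in Pkd1KO males (2.25% of all 15991 genes tested were lower) and none was higher (4.05% were). Against Pkd1KO+ciliaKO males, 3 of the 8 were lower (1.78% of all genes) and none higher (1.99%), while 1 of the 8 was higher (5.63%) and none lower (3.26%) in Pkd1KO+ciliaKO than in noncystic males. In females, 1 of 8 was lower (1.32% of 15968 genes) and none higher (2.02%) in Pkd1KO than in noncystic mice. Against Pkd1KO+ciliaKO females, 2 of 8 were lower (4.65%) and none higher (7.05%) in Pkd1KO mice. In Pkd1KO+ciliaKO against noncystic females, 1 of 8 was higher (0.67%) and none lower (1.87%). The median log2 fold change of the 8 in Pkd1KO against Pkd1KO+ciliaKO mice was -0.39 in males and -0.22 in females, where the median of all genes tested was 0.01 and -0.01. All 8 lay below zero in that comparison in both sexes, as did 48.2% and 52.0% of all genes. Since the 8 were chosen with earlier results of these data known, these counts describe them and do not test them as a set. Against noncystic mice the median of the 8 in Pkd1KO was -0.23 in males and -0.08 in females, and in Pkd1KO+ciliaKO mice it was 0.07 and 0.22. In these bulk pulldowns fewer cells of the segment and less RNA per cell cannot be told apart.

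**Figure D2:**
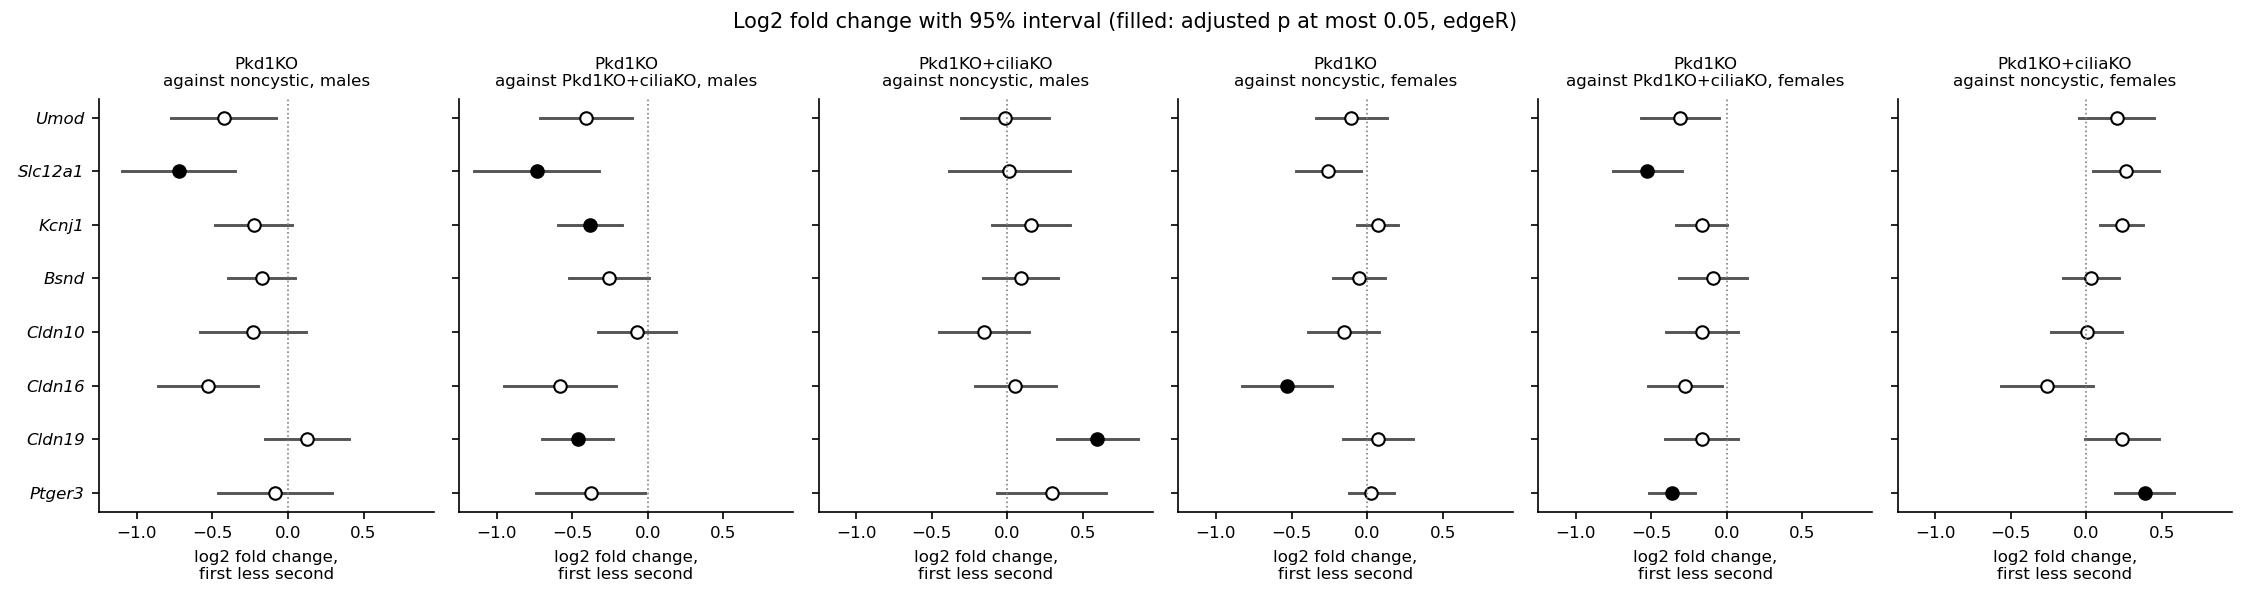
Log2 fold change (horizontal axes, first named group less second) with its 95% interval for the 8 genes in the 6 pairwise comparisons. Filled circles passed the adjusted p threshold of 0.05 in edgeR, which 9 of the 48 did, and all 8 points lie left of zero in Pkd1KO against Pkd1KO+ciliaKO mice of both sexes.

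Slc12a1 (ENSMUSG00000027202.12, chr2:125152505-125230002, + strand) encodes NKCC2, the target of loop diuretics. In males it ran from 773 to 1587 CPM (median 1160.0) in noncystic, from 569 to 1069.9 CPM (median 643) in Pkd1KO and from 762 to 1815 CPM (median 1182) in Pkd1KO+ciliaKO mice. In females it ran from 1111 to 1575 CPM (median 1245), from 895 to 1430.2 CPM (median 1037) and from 1235 to 1799 CPM (median 1504) in the same order. In males 6 of 7 Pkd1KO mice lay below every noncystic and every Pkd1KO+ciliaKO mouse, and the seventh, Pkd1KO male 2, lay inside both ranges. The log2 fold change in Pkd1KO males was -0.72 against noncystic mice (SE 0.177, 0.606-fold, adjusted p = 0.0220 in edgeR) and -0.73 against Pkd1KO+ciliaKO mice (SE 0.197, 0.601-fold, adjusted p = 0.0454), and the last 2 genotypes differed by 0.01 (95% interval -0.39 to 0.41). Without the 4 males that stood apart, of which noncystic 3 had the highest Slc12a1 of its group and Pkd1KO+ciliaKO 6 and 8 the highest pair of theirs, the differences were -0.61 (adjusted p = 0.0605) and -0.48 (adjusted p = 0.118), no longer past the threshold. Against Pkd1KO+ciliaKO males the call was also lost on leaving out any 1 of 11 of the 16 mice (adjusted p 0.0585 to 0.0870 in edgeR), namely Pkd1KO males 1, 3, 4, 5, 6 and 7 and Pkd1KO+ciliaKO males 1, 3, 6, 8 and 9. In females the fall against Pkd1KO+ciliaKO mice was -0.53 (SE 0.108, 0.694-fold, adjusted p = 0.00622), remained below the threshold with any 1 of the 14 mice left out, and was -0.54 (adjusted p = 0.00959) without the 2 libraries against their labels. Against noncystic females Slc12a1 in Pkd1KO was -0.26 (95% interval -0.47 to -0.04, adjusted p = 0.1996), which did not pass, although it did without Pkd1KO female 3 (adjusted p = 0.0483).

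Kcnj1 (ENSMUSG00000041248.9, chr9:32372493-32399197, + strand) encodes ROMK, the apical potassium channel that recycles potassium for NKCC2. In males it ran from 272 to 530.5 CPM (median 385) in noncystic, from 287 to 385 CPM (median 337) in Pkd1KO and from 353 to 542 CPM (median 447) in Pkd1KO+ciliaKO mice. In females the medians were 479, 495 and 556 CPM within an overall range of 451 to 636 CPM. The Pkd1KO males were the tightest of the male groups, and 6 of 7 lay below every Pkd1KO+ciliaKO male. Kcnj1 was lower in Pkd1KO than in Pkd1KO+ciliaKO males by -0.38 (SE 0.102, adjusted p = 0.0445 in edgeR), a call lost on leaving out any 1 of 11 of the 16 mice (Pkd1KO 1, 2, 3, 4, 6 and 7, Pkd1KO+ciliaKO 1, 3, 4, 6 and 8, adjusted p 0.0611 to 0.0779) or the 4 males that stood apart (-0.28, adjusted p = 0.124). Against noncystic males it was -0.23 and against noncystic females 0.07, neither past the threshold. Kcnj1 in Pkd1KO+ciliaKO females was 0.23 above noncystic females (adjusted p = 0.0689), and passed only without Pkd1KO+ciliaKO female 5 (adjusted p = 0.0460) among the 13 mice left out in turn.

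Bsnd (ENSMUSG00000025418.7, chr4:106483456-106492283, - strand) encodes barttin, which is needed for chloride exit on the basolateral side. In males its medians were 44.3, 40.6 and 47.6 CPM in noncystic, Pkd1KO and Pkd1KO+ciliaKO mice, and in females 58.5, 56.6 and 61.0 CPM, with overlapping groups throughout. None of its 6 comparisons passed the threshold, the largest being Pkd1KO against Pkd1KO+ciliaKO males at -0.26 (95% interval -0.52 to 0.01).

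Umod (ENSMUSG00000030963.6, chr7:119462711-119479282, - strand) ran in males from 1266 to 2585 CPM (median 1622) in noncystic, from 1046 to 1927 CPM (median 1219.9) in Pkd1KO and from 1206 to 2040.5 CPM (median 1845) in Pkd1KO+ciliaKO mice. In females the medians were 1968, 1904 and 2209.9 CPM, with all 3 groups overlapping. In males 5 of 7 Pkd1KO mice lay below every noncystic mouse. The differences of Pkd1KO males, -0.43 against noncystic (95% interval -0.77 to -0.08, adjusted p = 0.136 in edgeR) and -0.41 against Pkd1KO+ciliaKO mice (adjusted p = 0.127), did not pass. Both passed without Pkd1KO male 2 (adjusted p = 0.0355 and 0.0265), the mouse with the highest Umod and Slc12a1 of its group. In females Pkd1KO was -0.31 against Pkd1KO+ciliaKO mice (adjusted p = 0.105), and passed without Pkd1KO female 3 (adjusted p = 0.0348). Umod exons share 539 bases with the antisense gene Gm44588, and whether strand was used in counting is not given in the sources used here, so its counts may hold reads of both.

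Cldn16 and Cldn19 encode claudins that together form the cation pore through which magnesium and calcium are reabsorbed, and loss of either causes renal magnesium and calcium wasting. Cldn16 (ENSMUSG00000038148.13, chr16:26463135-26482765, + strand) ran in males from 5.84 to 8.61 CPM (median 7.90) in noncystic, from 4.03 to 9.19 CPM (median 4.61) in Pkd1KO and from 5.83 to 12.1 CPM (median 7.46) in Pkd1KO+ciliaKO mice. In females it ran from 7.72 to 16.3 CPM (median 9.84), from 5.20 to 8.87 CPM (median 7.53) and from 6.90 to 9.46 CPM (median 9.01). In males 5 of 7 Pkd1KO mice lay below both other groups, while Pkd1KO male 4, 1 of the 4 males that stood apart, lay above every noncystic male. The log2 fold change of Pkd1KO against noncystic mice was -0.53 in both sexes, with SE 0.155 and adjusted p = 0.0524 in males and SE 0.142 and adjusted p = 0.0466 in females, which straddles the threshold. Without the 4 males that stood apart it was -0.70 (adjusted p = 0.00180) and against Pkd1KO+ciliaKO males -0.76 (adjusted p = 0.0133, from -0.58 and adjusted p = 0.0746 with all mice). Leaving out Pkd1KO male 4 alone made both pass (adjusted p = 0.00123 and 0.00773), and leaving out noncystic male 8 made the first pass (adjusted p = 0.0430). In females the call was lost on leaving out any 1 of 13 of the 15 mice, all but noncystic female 5 and Pkd1KO female 5 (adjusted p 0.0530 to 0.0897), and was -0.59 (adjusted p = 0.0243) without the 2 libraries against their labels.

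Cldn19 (ENSMUSG00000066058.11, chr4:119255414-119262438, + strand) moved otherwise. In males it ran from 24.5 to 47.8 CPM (median 35.9) in noncystic, from 30.4 to 49.4 CPM (median 41.3) in Pkd1KO and from 43.5 to 70.4 CPM (median 52.8) in Pkd1KO+ciliaKO mice. In females the medians were 49.4, 53.2 and 58.2 CPM with overlapping groups. In males 7 of 9 Pkd1KO+ciliaKO mice lay above every noncystic mouse. The rise in Pkd1KO+ciliaKO over noncystic males was 0.59 (SE 0.128, 1.51-fold, adjusted p = 0.00686 in edgeR), and it passed under all 11 alternatives tried and on leaving out any 1 of the 17 mice. Pkd1KO males were lower than Pkd1KO+ciliaKO males by -0.46 (SE 0.112, adjusted p = 0.0280), a call lost without Pkd1KO male 1, 6 or 7 or Pkd1KO+ciliaKO male 1 or 6 (adjusted p 0.0540 to 0.0572). Pkd1KO and noncystic mice differed by 0.13 in males (95% interval -0.15 to 0.41) and 0.07 in females, both short of the threshold. Cldn19 exons share 90 bases with the antisense gene Gm12927.

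Cldn10 (ENSMUSG00000022132.15, chr14:118787908-118875489, + strand) encodes the sodium-selective claudin of the segment in 1 isoform and an anion-selective claudin of the proximal tubule in another, from different first exons. Its 6 group medians lay between 138 and 178 CPM and its lowest and highest values were 96.1 and 241 CPM. The male groups overlapped, as did the female groups, and none of the 6 comparisons passed, with log2 fold changes from -0.23 to 0.0013. Gene counts cannot separate the isoforms.

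Ptger3 (ENSMUSG00000040016.16, chr3:157566892-157645888, + strand) encodes EP3. In females it ran from 85.8 to 124 CPM (median 109) in noncystic, from 98.2 to 119 CPM (median 110.4) in Pkd1KO and from 113 to 165 CPM (median 139) in Pkd1KO+ciliaKO mice. In males the medians were 80.1, 75.9 and 88.9 CPM within an overall range of 51.2 to 138 CPM. Female Pkd1KO+ciliaKO mice were the high group, and Pkd1KO and noncystic females lay together. Ptger3 was lower in Pkd1KO than in Pkd1KO+ciliaKO females by -0.36 (SE 0.0727, 0.777-fold, adjusted p = 0.00555 in edgeR), in all 11 alternatives and with any 1 of the 14 mice left out. It was higher in Pkd1KO+ciliaKO than in noncystic females by 0.39 (SE 0.0914, adjusted p = 0.0411). That second call was lost on leaving out any 1 of 8 of the 13 mice (noncystic 2, 3, 6 and 7, Pkd1KO+ciliaKO 1, 2, 3 and 4, adjusted p 0.0552 to 0.0927), and was 0.41 (adjusted p = 0.0371) without the 2 libraries against their labels. In Pkd1KO males Ptger3 was -0.09 against noncystic mice (95% interval -0.46 to 0.29) and -0.38 against Pkd1KO+ciliaKO mice (adjusted p = 0.230).

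Counts of 2 genes in the same library need no scaling, so ratios within a mouse were compared with two-sided exact permutation tests (9 ratios in 6 comparisons, adjusted over the 54 tests, of which 18 passed). Without the 6 libraries 17 of these 18 passed, 1 was lost and 4 others were gained. Gained were Kcnj1 over Slc12a1 in Pkd1KO+ciliaKO against noncystic males (0.30, exact permutation adjusted p = 0.0450, from 0.17 and 0.266 with all mice) and Cldn19 over Slc12a1 in Pkd1KO against noncystic females (0.42, adjusted p = 0.0252, from 0.33 and 0.0783). The others were Cldn16 over Cldn19 in Pkd1KO+ciliaKO against noncystic females (-0.59, exact permutation adjusted p = 0.0312, from -0.47 and 0.0865) and Cldn10 over Cldn16 in Pkd1KO against Pkd1KO+ciliaKO males (0.61, adjusted p = 0.0286, from 0.51 and 0.111). The ratios over Slc12a1 share that denominator and are not separate evidence about it. The share of ratios between other genes that pass, or that separate 2 groups in full, is not reported here.

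Ptger3 was 6.28 to 7.25 counts per 100 counts of Slc12a1 in the 8 noncystic males, 8.83 to 12.2 in the 7 Pkd1KO males and 6.39 to 10.1 in the 9 Pkd1KO+ciliaKO males. The Pkd1KO and noncystic males did not overlap (log2 difference 0.64, exact p = 0.00031, adjusted p = 0.00839). Cldn19 per Slc12a1 also separated these groups in full, by 0.85 (exact p = 0.00031, adjusted p = 0.00839), the smallest p that 7 against 8 mice can give being the same value. Both were also higher in Pkd1KO+ciliaKO than in noncystic males, by 0.31 for Ptger3 and 0.61 for Cldn19 (exact permutation adjusted p = 0.00952 each). In each, 8 of 9 Pkd1KO+ciliaKO males lay above every noncystic male, although Slc12a1 itself differed by 0.01 between these groups. Ptger3 over Slc12a1 was higher in Pkd1KO than in Pkd1KO+ciliaKO males by 0.33 (exact permutation adjusted p = 0.0130). Cldn19 over Slc12a1 did not pass there (0.24, adjusted p = 0.242).

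Bsnd over Slc12a1 was higher in Pkd1KO than in noncystic males by 0.54 (exact permutation adjusted p = 0.00899) and than in Pkd1KO+ciliaKO mice of both sexes, by 0.46 in males (adjusted p = 0.0206) and 0.44 in females (adjusted p = 0.00899). The 8 Pkd1KO and 6 Pkd1KO+ciliaKO females did not overlap in this ratio. Kcnj1 over Slc12a1 was higher in Pkd1KO than in noncystic mice by 0.50 in males (exact permutation adjusted p = 0.0206) and 0.33 in females (adjusted p = 0.0326), and Umod over Slc12a1 by 0.28 (adjusted p = 0.0264, and 0.0602 without the 6 libraries) and 0.15 (adjusted p = 0.0382). Kcnj1 over Slc12a1 was also higher in Pkd1KO than in Pkd1KO+ciliaKO females (0.36, exact permutation adjusted p = 0.0249). Ptger3 over Slc12a1 was higher in Pkd1KO than in noncystic females (0.30, exact permutation adjusted p = 0.0325). In Pkd1KO against noncystic males, Slc12a1 was therefore lower relative to Umod, Kcnj1, Bsnd, Cldn19 and Ptger3, for Umod only with the 6 libraries kept.

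The 2 pore claudins parted from each other. Cldn16 was a median of 23.9 counts per 100 counts of Cldn19 in noncystic males, 12.7 in Pkd1KO and 13.8 in Pkd1KO+ciliaKO males. Their log2 ratio was lower than in noncystic males by -0.72 in Pkd1KO (exact permutation adjusted p = 0.0206) and -0.58 in Pkd1KO+ciliaKO males (adjusted p = 0.0284), and lower in Pkd1KO than in noncystic females by -0.59 (adjusted p = 0.0249). Cldn16 over Slc12a1 was lower in all 6 Pkd1KO+ciliaKO females than in any of the 7 noncystic females (-0.50, exact permutation adjusted p = 0.00952).

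**Figure D3:**
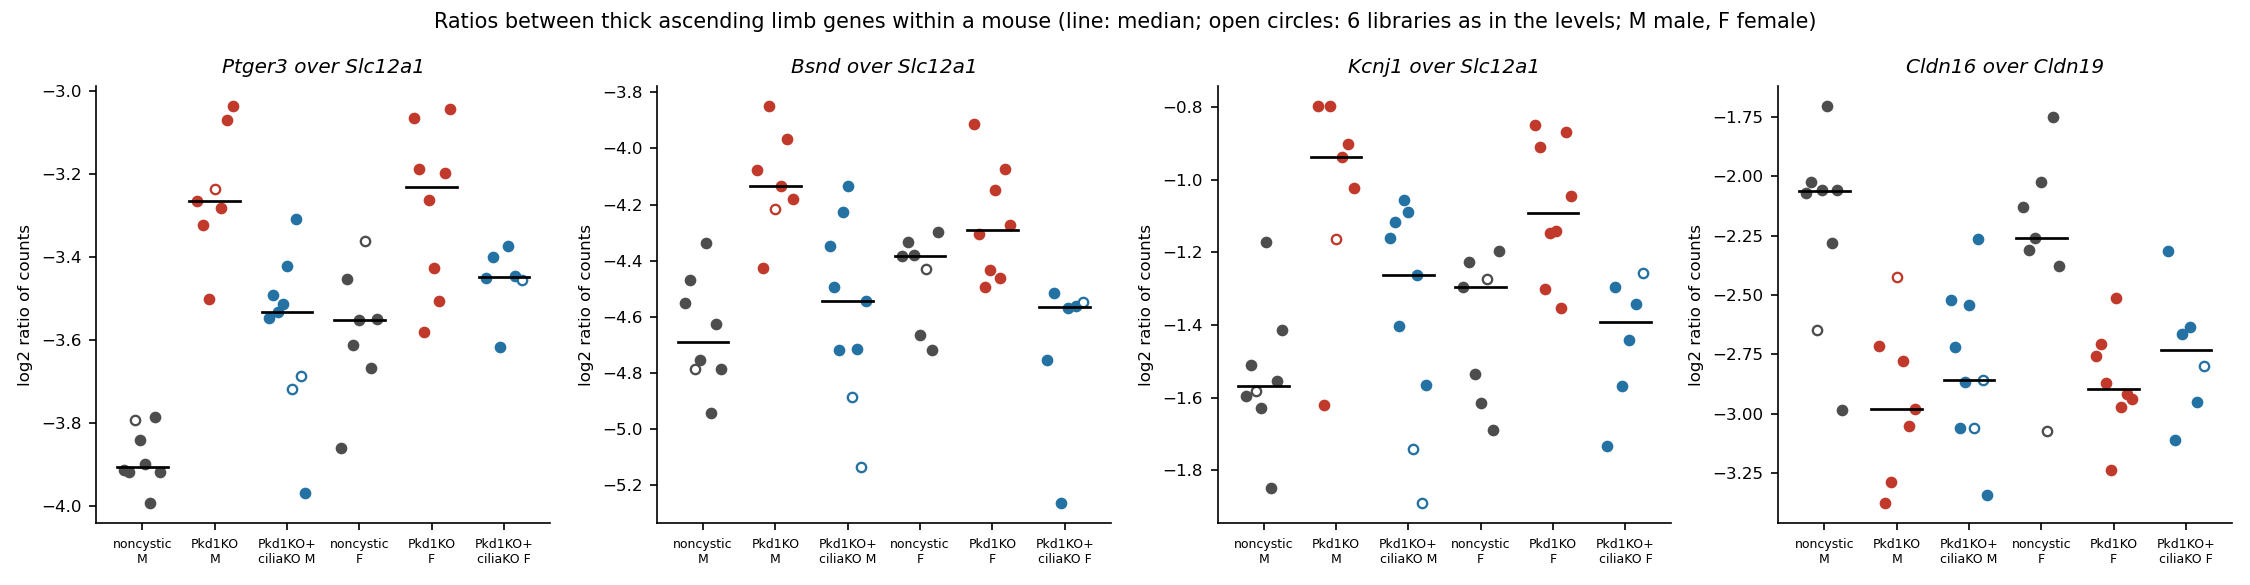
Log2 ratio of counts of 2 genes in the same mouse (vertical axes, not starting at 0) for the 6 groups (horizontal axis), with a line at the group median and open circles for the 6 libraries named above. The 7 Pkd1KO males lie above all 8 noncystic males in Ptger3 over Slc12a1, and Pkd1KO mice of both sexes lie mostly below noncystic mice in Cldn16 over Cldn19.

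Levels also differed by sex. In a fit of all 6 groups, 5 of the 8 genes were lower in noncystic males than females (13.3% of 15828 genes were lower), 7 of 8 in Pkd1KO (14.3%) and 4 of 8 in Pkd1KO+ciliaKO mice (8.19%), and none of the 8 was higher in males (14.1%, 16.3% and 11.2% of all genes were). Kcnj1, Bsnd and Ptger3 were lower in males of all 3 genotypes. Kcnj1 did not overlap between the sexes in Pkd1KO mice (287 to 385 CPM in males, 451 to 580.1 CPM in females), with a log2 fold change of -0.60 (SE 0.102, adjusted p = 1.50e-05 in edgeR). The share of all genes that separate the sexes in this way is not reported here. Ptger3 was lower by -0.46, -0.57 and -0.56 in noncystic, Pkd1KO and Pkd1KO+ciliaKO males and Bsnd by -0.39, -0.50 and -0.33, the last with adjusted p = 0.0360 and 0.0661 without the 2 female libraries against their labels. Umod was lower in Pkd1KO (-0.55) and Pkd1KO+ciliaKO males (-0.45, adjusted p = 0.0224 in edgeR) and was -0.23 in noncystic males, which did not pass. Slc12a1 was lower in Pkd1KO males (-0.62), was -0.16 in noncystic males, which did not pass, and was -0.42 in Pkd1KO+ciliaKO males (adjusted p = 0.0748), which passed without the 4 males that stood apart (-0.65, adjusted p = 0.000643). Cldn10 stood apart, being 0.28, 0.20 and 0.11 higher in males, none past the threshold with all mice and the first past it without the 4 males that stood apart (0.34, adjusted p = 0.0282). Markers of other cells also differed between the sexes. In noncystic, Pkd1KO and Pkd1KO+ciliaKO mice, 3, 4 and 4 of 5 principal cell markers, 3, 5 and 4 of 5 intercalated cell markers and 4, 1 and 1 of 5 tubule injury markers were lower in males, and 1, 5 and 1 of 5 macrophage markers were higher. Their part in the sex differences of the 8 genes was not tested. According to the study's text, ribosomes were pulled down from fresh kidneys, frozen, and then run through RNASeq in a single batch. When each pulldown was made is not given in the sources used here, and males and females are in separate tables.

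**Figure D4:**
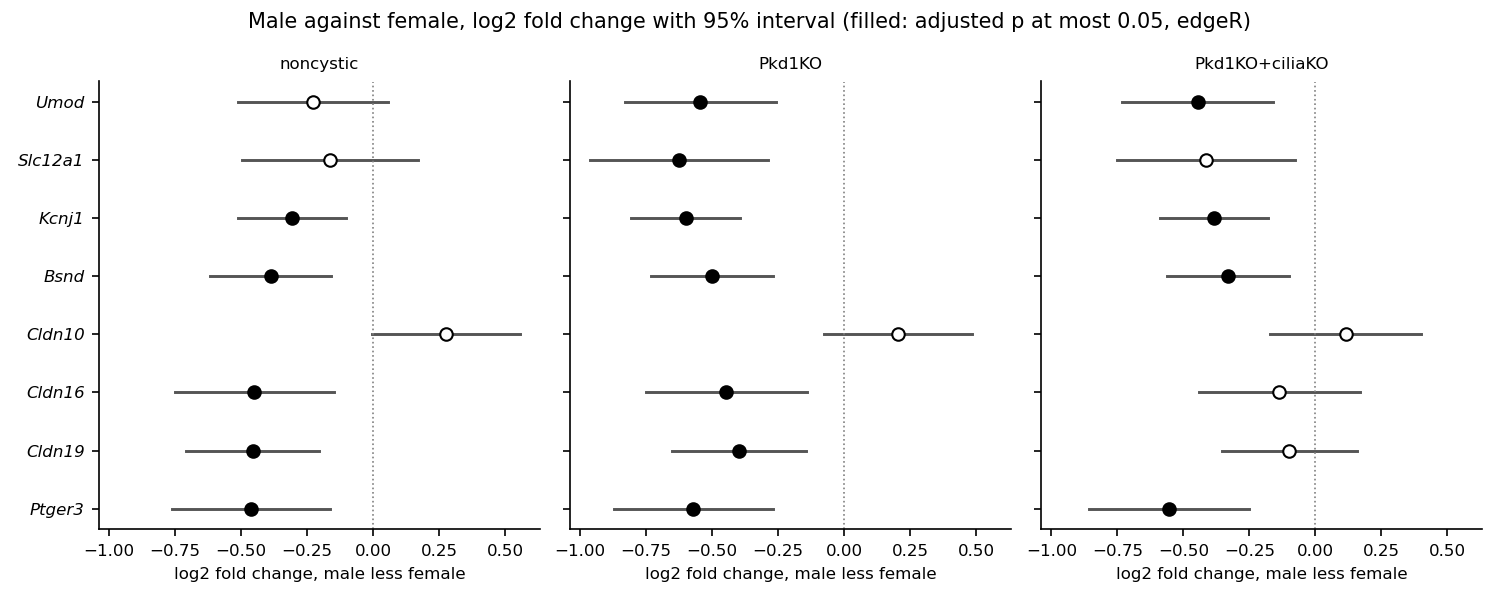
Log2 fold change of males against females (horizontal axes) with its 95% interval for the 8 genes in each genotype. Filled circles passed the adjusted p threshold of 0.05 in edgeR, and Cldn10 is the only gene right of zero, in all 3 genotypes.

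Whether a genotype difference itself differed by sex was tested as an interaction. None of the 8 passed in any of the 3 comparisons, where 0.0126%, 0.221% and 0.0316% of 15828 genes did, and in DESeq2 none did either. At an unadjusted p under 0.05 there was Kcnj1 alone among the 8, in Pkd1KO against noncystic mice (-0.29, adjusted p = 0.612 in edgeR), where 8.08%, 7.94% and 5.49% of all genes lay under it in the 3 comparisons. For Slc12a1 the difference of Pkd1KO from noncystic mice in males less that in females was -0.46 with a 95% interval from -0.93 to 0.01, which holds both zero and the full size of the male difference.

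Between mice of the same group most of the 8 varied together. After group means were subtracted, the 28 pairs of log2 CPM had a median Pearson r of 0.48 over 45 mice (range -0.23 to 0.87), given as a description since all genes of a mouse share 1 library. The highest was Slc12a1 with Ptger3. Against the mean of the other 7, r was 0.72 to 0.75 for Umod, Slc12a1, Kcnj1, Bsnd and Ptger3, 0.56 for Cldn19, 0.16 for Cldn16 and -0.12 for Cldn10. The 7 pairs with Cldn10 had a median r of -0.10, and all 21 others were above zero. Without the 6 libraries 6 of the 7 pairs with Cldn10 were above zero (median r 0.05, Slc12a1 with Cldn10 moving from -0.23 to 0.05), as were 6 of 7 in females and 1 of 7 in males, while the 21 others stayed above zero without the 6 libraries and in females (18 of 21 in males). With the summed level of 7 proximal tubule markers, r was 0.36 for Umod, 0.33 for Cldn10, 0.0042 for Slc12a1 and -0.43 for Cldn16. Larger in size for Cldn10 were r of -0.53 with the podocyte sum and -0.44 with the tubule injury sum, -0.44 with the macula densa sum and -0.43 with the endothelial cell sum. Cldn19 had its highest r with the tubule injury sum (0.60), followed by fibroblast and pericyte (0.47) and podocyte sums (0.44). With the distal convoluted tubule sum, r was 0.65 for Kcnj1, 0.58 for Ptger3, 0.53 for Slc12a1 and Bsnd and 0.29 for Umod. For Cldn19, Cldn10 and Cldn16 it was 0.16, 0.03 and -0.08. With the intercalated cell sum, r was 0.30 to 0.53 for Umod, Slc12a1, Kcnj1, Bsnd and Ptger3, and -0.10 to 0.12 for the claudin genes. The genes that varied together thus also varied with markers of other segments.

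**Figure D5:**
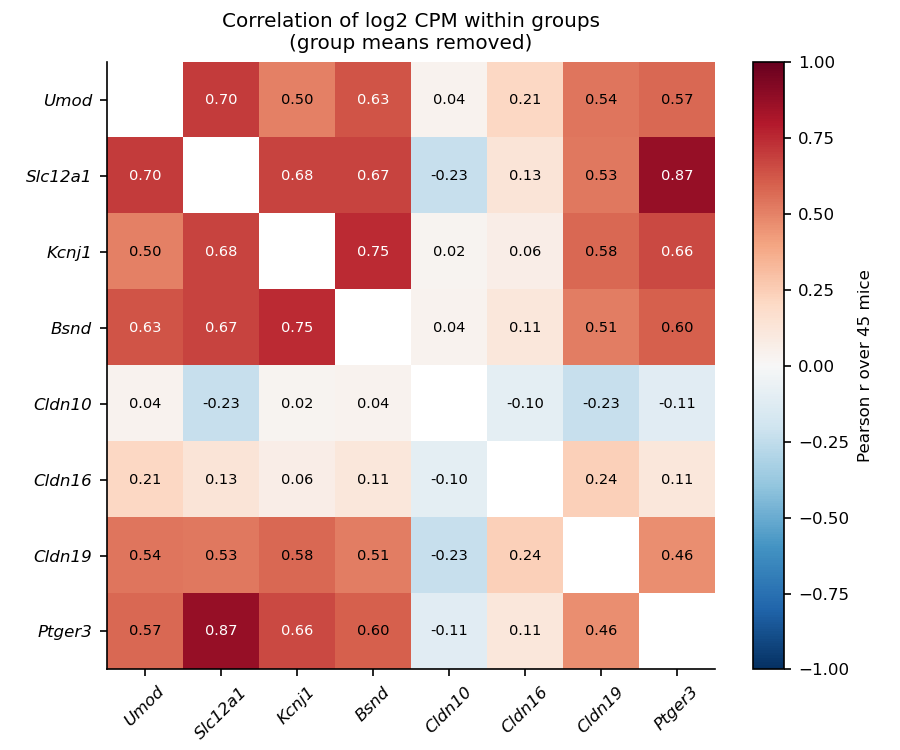
Pearson r of log2 CPM between each pair of the 8 genes over 45 mice after subtracting group means, on a colour scale from -1 (blue) to 1 (red). Umod, Slc12a1, Kcnj1, Bsnd and Ptger3 form a block of high values, and the rows of Cldn10 and Cldn16 are pale.

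Among the 15820 other genes, those whose levels between mice were most like the mean of the 8 were Pla1a (r = 0.79), Sort1 (0.79), Ephb2 (0.78), Fa2h (0.77) and Sv2a (0.77), again with group means removed over 45 mice.

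Other genes of the segment were followed in 4 lists, to be read against the shares of all genes given above. Of 12 other transport genes, none passed in Pkd1KO against noncystic mice of either sex (median log2 fold change -0.16 in males and -0.05 in females, edgeR) or against Pkd1KO+ciliaKO males. Slc4a7, a sodium bicarbonate cotransporter, was the exception in females, lower in Pkd1KO than in Pkd1KO+ciliaKO mice (-0.55, adjusted p = 0.00499) and higher in Pkd1KO+ciliaKO than in noncystic mice (0.60, adjusted p = 0.0310). Kcnma1, a calcium-activated potassium channel, was lower in Pkd1KO+ciliaKO than in noncystic males (-0.85, adjusted p = 0.0401).

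Of 18 receptors and regulators, 1 was higher and 2 were lower in Pkd1KO than in noncystic males, and 1 was higher and 1 lower in females. Gcgr, the glucagon receptor, was lower in both sexes (-1.07 in males, adjusted p = 0.00190 in edgeR, and -0.72 in females, adjusted p = 0.0384). Calcr, the calcitonin receptor, was higher in both (1.57, adjusted p = 0.0224, and 1.00, adjusted p = 0.0175). Against Pkd1KO+ciliaKO mice none of the 18 passed in males and 4 were lower in Pkd1KO females, the kinases Wnk4 (-0.30) and Stk39 (-0.24), which act on NKCC2 phosphorylation, and Nos1 (-0.73) and Ptgs2 (-1.16), which mark the macula densa.

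Of 9 other junction genes tested in males and 10 in females, Tmem207 is the neighbour of Cldn16, lying 20890 bases beyond its end on the opposite strand (ENSMUSG00000091972.2, chr16:26503656-26526769) with no annotated gene between. Tmem207 was lower in Pkd1KO than in noncystic males (-1.21, adjusted p = 0.00695 in edgeR) and than in Pkd1KO+ciliaKO mice of both sexes (-1.01, adjusted p = 0.0415, and -0.62, adjusted p = 0.0116). Between mice of a group Tmem207 had r of 0.14 with Cldn16 and 0.60 with Slc12a1. Cldn3 was higher in Pkd1KO than in Pkd1KO+ciliaKO males (0.47, adjusted p = 0.0402), and no other gene of the list passed in the 6 genotype comparisons.

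Of 14 transcription factors and other marker genes, 8 were lower and none higher in Pkd1KO than in noncystic males (median -0.32), and 1 was lower and none higher in females (median -0.11). Tmem72 was the one that passed in both sexes (-0.69, adjusted p = 0.00660 in edgeR, and -0.47, adjusted p = 0.00843), and it was also lower than in Pkd1KO+ciliaKO mice of both sexes (-0.64, adjusted p = 0.0121, and -0.58, adjusted p = 0.000905). Sostdc1, a secreted inhibitor of BMP and Wnt signals, was lower in Pkd1KO than in Pkd1KO+ciliaKO mice of both sexes (-0.59, adjusted p = 0.0294, and -0.42, adjusted p = 0.0207). Against Pkd1KO+ciliaKO males, 3 of the 14 were lower and none higher in Pkd1KO. Against Pkd1KO+ciliaKO females the list went both ways, with 2 lower and 2 higher in Pkd1KO. In the interaction of sex with genotype, none of the 14 passed for Pkd1KO against noncystic mice. For Pkd1KO against Pkd1KO+ciliaKO mice 2 of the 14 passed, both with a negative value for the male difference less the female one. Egf, chosen after its values were seen, encodes the epidermal growth factor precursor and had medians of 1024.8 CPM in noncystic and 423 CPM in Pkd1KO males, whose ranges (809 to 1662 and 279 to 698 CPM) did not overlap (-1.35, adjusted p = 0.000585). In females Tmem72 alone of the 14 passed in this comparison, so Egf did not. The share of all genes whose ranges separate in this way is not reported here.

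Markers of other cells moved with some of these groups. The summed level of 7 proximal tubule markers was 6767 to 11230 CPM in noncystic, 4595 to 9972 CPM in Pkd1KO and 5484 to 8944 CPM in Pkd1KO+ciliaKO males, with 1 of 7 lower in Pkd1KO and 4 of 7 lower in Pkd1KO+ciliaKO than in noncystic males. That of 5 macrophage markers was 68.0 to 94.8 CPM in noncystic, 91.7 to 255 CPM in Pkd1KO and 46.8 to 94.3 CPM in Pkd1KO+ciliaKO males, and of 5 tubule injury markers 378 to 751, 524 to 1671 and 597 to 1292 CPM. Of the 5 macrophage markers, 1 was higher in Pkd1KO than in noncystic males and 1 than in Pkd1KO+ciliaKO males. Another call was for 1 of 5 lower in Pkd1KO+ciliaKO than in noncystic males. In these males 2 of 4 podocyte and 2 of 5 tubule injury markers were higher in Pkd1KO+ciliaKO than in noncystic mice, the comparison in which Cldn19 was higher, and the same numbers were higher in Pkd1KO than in noncystic mice, the podocyte sums being 18.8 to 37.8 CPM in noncystic, 29.2 to 95.9 CPM in Pkd1KO and 30.5 to 52.3 CPM in Pkd1KO+ciliaKO males. For 4 distal convoluted tubule markers, the next segment, the sums were 1013 to 2209, 610.3 to 1387 and 964 to 1614 CPM, with none of 4 passing in Pkd1KO against noncystic males and 1 of 4 lower than in Pkd1KO+ciliaKO males. In females 1 of these 4 was also lower in Pkd1KO than in Pkd1KO+ciliaKO mice. Of 5 intercalated cell markers, 2 were lower in Pkd1KO than in Pkd1KO+ciliaKO males and 1 in females, with none higher. In females the proximal tubule sums were 6733 to 9551, 6023 to 9668 and 5664 to 8000 CPM. The part of these cells in the results on the 8 genes was not tested.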

How the data were processed

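TRAP libraries of 45 mice were prepared with KAPA RNA HyperPrep after ribosomal RNA removal. Per the labels and the study's methods, the authors used fastp 0.20.0 for trimming, STAR 2.7.9 for alignment (GRCm38.p6) and featureCounts 2.0.0 for exon fragments per gene. The strand option is not given in the sources used here. The authors deposited a count table and a TPM table (normalised for gene length and depth) for each sex.

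Protein-coding genes of the TPM tables reaching 6 counts in 20% of the mice were tested on the deposited counts with edgeR 4.0.16 (TMM scaling, quasi-likelihood test, Benjamini-Hochberg adjustment, threshold 0.05), each pair of genotypes within a sex. Male against female and interaction terms came from 1 fit of the 6 groups over 15828 genes. Ratios of counts in a mouse (1 count added) were compared with two-sided exact permutation tests in scipy 1.17.1. Each group member was a separate mouse by its label. DESeq2 1.42.0, limma 3.58.1, other filters and scalings, and each mouse left out in turn were alternatives. On simulated data with 200 changed genes, 82.1% of genes of log2 fold change 1 were called in Pkd1KO against noncystic males and 95.8% in Pkd1KO against Pkd1KO+ciliaKO females. With all mice, every difference of the thick ascending limb genes described here was smaller than this. These shares therefore do not give the power to call them, and an uncalled gene is not shown to be unchanged. Precision from 80874556 to 132958186 fragments covers counting error only.

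The members and gene lists were chosen with earlier results of these data known. Genes of the lists were named where they passed in the same direction in both sexes in a comparison of Pkd1KO with either other genotype, and those named beside them, such as Egf, Cldn3, Slc4a7, Kcnma1, Wnk4, Stk39, Nos1 and Ptgs2, were chosen after their values were seen. Values of some single genes of these lists are not reported here.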

Additional observations from a re-analysis of the deposited data

Results flagged for a closer look

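In 3 of the 48 gene and genotype groups by sex, 1 mouse lay farther from the rest than Dixon's 95% critical value allows, which chance alone gives in about 1 in 20 groups. Slc12a1 was 1069.9 CPM in Pkd1KO male 2, the next value being 737 CPM. Cldn16 was 9.19 CPM in Pkd1KO male 4, the next being 6.02 CPM, and 16.3 CPM in noncystic female 6, the next being 10.7 CPM. The causes were not tested.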

How the results depend on the processing

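Of the 8 genes, the number called changed with the setting. In Pkd1KO against noncystic males it was 1, and 2 with DESeq2, 2 with 3 genotypes in one fit and 3 with limma voom. In Pkd1KO against Pkd1KO+ciliaKO males it was 3, and 5 with limma on log2(TPM + 0.1). In Pkd1KO against noncystic females it was 1, and 0 with no filter, all gene classes or either TPM scale. In Pkd1KO+ciliaKO against noncystic females it was 1, and 2 with DESeq2 or voom, 0 with all gene classes and 3 on either TPM scale. With the replicate number as a block it was 0 in Pkd1KO against Pkd1KO+ciliaKO males, 0 in Pkd1KO against noncystic females, 1 in Pkd1KO against Pkd1KO+ciliaKO females and 0 in Pkd1KO+ciliaKO against noncystic females, but the numbers do not pair the mice (r of same-numbered deviations -0.26 to 0.26, over 0.1 in 11 of 41 pairs, best match in 7). Leaving out 1 mouse gave 1 to 2 and 0 to 3 in the Pkd1KO male comparisons, 0 to 1 and 2 to 3 in the Pkd1KO female ones, and 0 to 2 in Pkd1KO+ciliaKO against noncystic females. The TPM + 0.1 scale moved the median of all genes by -0.12 in Pkd1KO against Pkd1KO+ciliaKO males and 0.12 in Pkd1KO+ciliaKO against noncystic females. The cause was not tested.

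Changes of sign were among uncalled values near zero. In Pkd1KO against noncystic males Ptger3 was 0.0017 with voom and 0.044 without the 4 males. In Pkd1KO+ciliaKO against noncystic males Umod was 0.088 on log2(TPM + 1) and 0.089 on log2(TPM + 0.1), and Slc12a1 was -0.017 with the block, -0.17 with voom and -0.15 without the 4 males. In Pkd1KO+ciliaKO against noncystic females Bsnd was -0.0013 without the 2 females, and Cldn10 was -0.0089 with all gene classes, -0.014 with voom and -0.022 without the 2 females. Leaving out 1 mouse, values spanned zero for Ptger3 in Pkd1KO against noncystic males (-0.20 to 0.018) and females (-0.017 to 0.067), for Umod (-0.078 to 0.086), Slc12a1 (-0.094 to 0.091) and Cldn16 (-0.046 to 0.10) in Pkd1KO+ciliaKO against noncystic males, and for Bsnd (-0.0074 to 0.11) and Cldn10 (-0.067 to 0.051) in Pkd1KO+ciliaKO against noncystic females.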
